A study of Mus musculus with 3 samples.

Results

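The 8 genes described here encode proteins with which vascular endothelium holds leukocytes and platelets, or which mark its venous segments: Vcam1, Icam1, Icam2, Pecam1, Selp, Sele, Ackr1 and Vwf. They were found by gene symbol in the feature tables, where each occurred once among 32285 genes. Single live brain cells of C57BL6J mice with genotype WT were sequenced by a droplet method that counts 3′ ends with unique molecular identifiers (UMIs). There were 3 groups, namely naive mice without occlusion, which served as control, and mice taken 24 h or 3 d after a transient ischaemic attack (TIA) made by closing the middle cerebral artery for 5 min with a filament. After TIA the ipsilateral hemisphere was used, meninges and white matter were taken away, tissue was digested with papain, and cells negative for propidium iodide were sorted. By the paper's methods, TIA was made by surgery under anaesthesia, and no library of sham-operated mice was among the 3. Anaesthesia and surgery therefore cannot be told apart from the occlusion in any comparison with control. The labels give neither the age nor the sex of the mice, both of which the study's text states. Each group was 1 library of 3 pooled mice, so differences between mice could not be measured, and the control library is shared by the comparisons at 24 h and at 3 d.

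Leukocytes leave the blood mainly through venules, where selectins slow them and immunoglobulin-type adhesion molecules then hold them through integrins. P-selectin and von Willebrand factor are stored together in Weibel-Palade bodies of endothelial cells, and E-selectin, VCAM-1 and ICAM-1 are made after stimulation by cytokines. Some of these proteins are not restricted to vessels, since microglia can carry ICAM-1 and astrocytes can carry VCAM-1.

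The control library held 37987228 UMIs in 4804 cell barcodes, of which 4018 cells were kept with a median of 7750 UMIs. At 24 h there were 12919691 UMIs in 1619 barcodes, with 1225 cells kept and a median of 8123 UMIs. At 3 d there were 48636436 UMIs in 5505 barcodes, with 4781 cells kept and a median of 7868 UMIs. The 24 h library was thus the smallest, while the median depth over all cells kept was alike in all 3. Within each cell class compared further on, the median depth was highest at 24 h. Barcode sequences shared between libraries were few, with 3 between control and 24 h, 8 between control and 3 d, 4 between 24 h and 3 d, and 0 in all 3.

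Endothelial cells were 7.14% of the cells kept in the control library (287 of them, with a 95% interval of 6.37 to 7.98%), 18.7% at 24 h (229, 16.5 to 21.0%) and 12.4% at 3 d (591, 11.4 to 13.3%). Their share was highest at 24 h, and the 3 intervals did not overlap. Pericytes, sorted alongside them, went from 3.96% to 14.9% and 6.84%. The class with neuron markers went the other way, from 19.1% to 8.90% and 7.55%, as did cells left unnamed, from 7.19% to 1.88% and 3.05%. A share depends on how many cells of the other classes were recovered, so these shares do not measure numbers of cells in the tissue. All intervals given here cover counting error alone. Those of levels and ratios take each UMI as independent, so they are too narrow where few cells hold most UMIs of a gene. The endothelial class had 12 of 12 of its markers in each library, summing to 28097 counts per 1000000 UMIs (CPM) in control, 27755 at 24 h and 27807 at 3 d, with Flt1 the most abundant. Its median depth was 4643 UMIs in control, 5690 at 24 h and 4263 at 3 d.

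Markers of other cell types were also counted in the endothelial class, and the gene named as most abundant in a list is that with the most UMIs over the 3 libraries together. Microglial markers (8 of 8 found in each library) summed to 808 CPM in control, 356 at 24 h and 1110 at 3 d. Oligodendrocyte markers (8 of 8, Mal the most abundant) summed to 548, 846 and 660 CPM, and pericyte markers (8 of 8, Rgs5 the most abundant) to 257, 243 and 139 CPM. Mal carried the oligodendrocyte list, with 545 of 764, 1032 of 1084 and 1456 of 1807 UMIs, and the other 7 of its markers summed to 157, 40.6 and 128 CPM. They were lowest at 24 h, as were the lists of microglia, astrocytes, neurons and erythroid cells. Neuron markers (8, 7 and 8 of 10 found, Stmn2 the most abundant, with Rbfox3 and Slc17a7 at 0) summed to 141, 49.1 and 78.5 CPM, and erythroid markers (6, 4 and 6 of 6, Hbb-bs the most abundant) to 417, 25.7 and 95.3 CPM. The B cell list stood at 1331, 981 and 1365 CPM, nearly all of it Ebf1. Of the T and NK cell markers, 0 of 8 were found in any library, and the 10 lists other than these, endothelial cells and astrocytes were each at or under 38.7 CPM. The part of these RNAs in the results was not tested.

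The 6 classes compared were endothelial cells, pericytes, microglia, astrocytes, oligodendrocytes and a class with neuron markers. The last was led by Adarb2, Gm38505 and Lrrc7 and is called neuron-like here. Levels are given as CPM of the UMIs summed over a class in a library, and as the share of cells with at least 1 UMI. Counts come from 3′ ends and were not divided by gene length, so levels of different genes are not compared. A member is said to have risen or fallen where both summed counts together held at least 30 UMIs and the CPM differed by at least 2-fold. In endothelial cells at 24 h, 3 of the 6 members with enough UMIs rose, namely Vcam1, Ackr1 and Vwf, beside 2.48% of the 8723 genes tested, and 0 fell, beside 3.58%. Ackr1, with 2 UMIs in control and 50 at 24 h, had enough UMIs only through the library in which it was high, so its inclusion fixed its direction. At 3 d, 0 of 5 rose or fell, beside 3.53% and 0.96% of 9999 genes. With a limit of 1.5-fold, the same 3 members were higher and 0 lower at 24 h (8.56% and 9.7% of all genes), and at 3 d Vcam1 and Vwf were higher (11.3%) and Icam2 lower (5.16%). The median log2 ratio of the members tested was 0.86 at 24 h and 0.12 at 3 d, beside -0.01 and 0.05 over all genes tested, and without Ackr1 the 24 h median was that of Pecam1, 0.08.

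**Figure D1:**
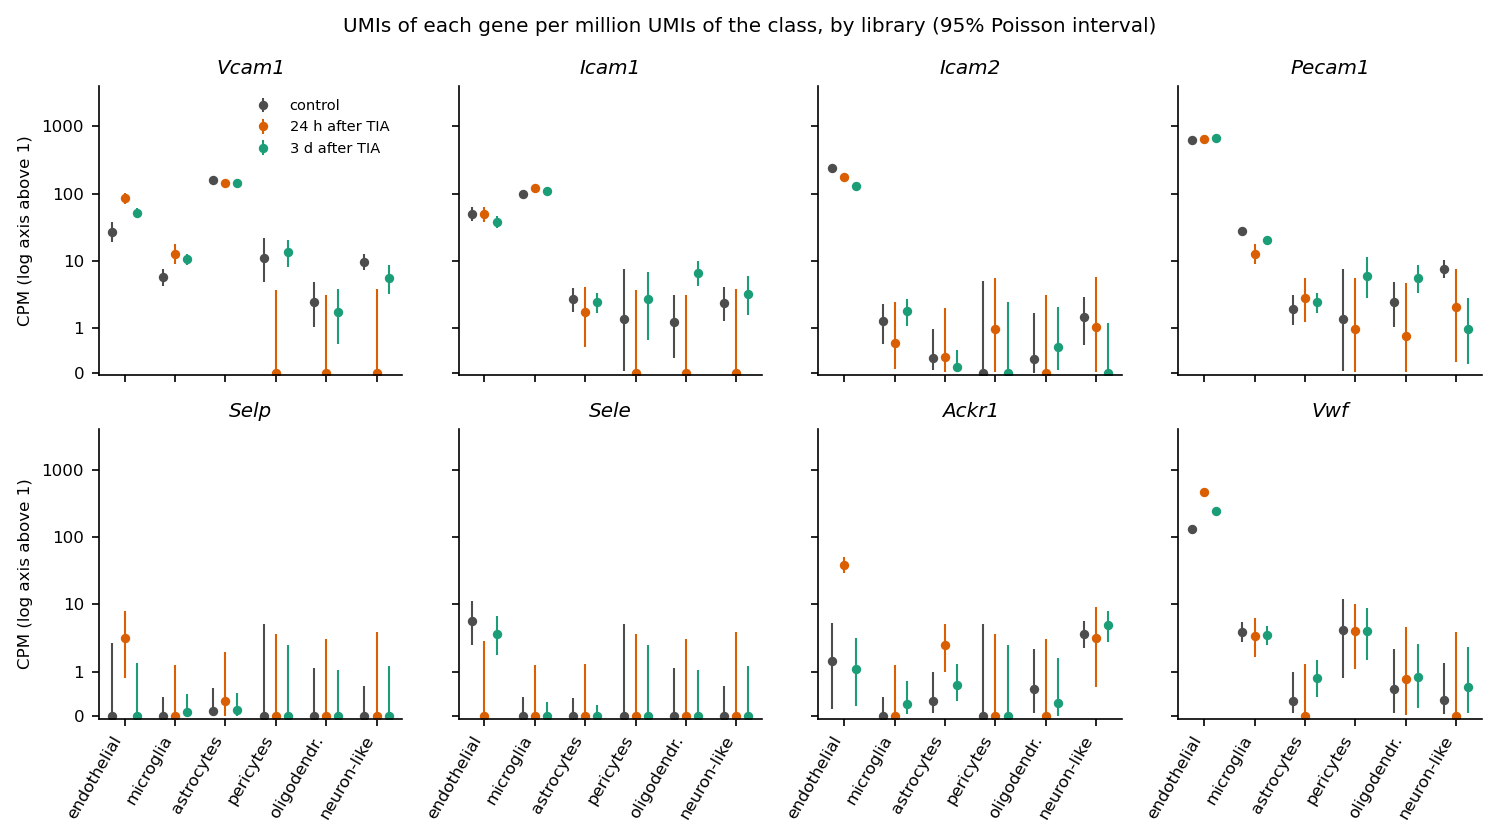
Level of each of the 8 genes in CPM (vertical axis, logarithmic above 1) in the 6 cell classes compared (horizontal axis), for the control, 24 h and 3 d libraries, with 95% counting intervals as error bars. Icam2, Vwf and Pecam1 stand highest in endothelial cells, Vcam1 in astrocytes and Icam1 in microglia.

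Vcam1 encodes an immunoglobulin-type receptor for the integrin made of Itga4 and Itgb1. In endothelial cells it measured 27.3 CPM in control (38 UMIs, interval 19.3 to 37.4), 85.0 CPM at 24 h (109 UMIs, 69.8 to 103) and 51.5 CPM at 3 d (141 UMIs, 43.3 to 60.7). Vcam1 was thus highest at 24 h and between the other libraries at 3 d, with no overlap of the 3 intervals. These intervals take UMIs of the same cell as independent, so they do not secure this order. The log2 ratio to control was 1.64 at 24 h (interval 1.10 to 2.21, a 3.12-fold rise) and 0.92 at 3 d (0.39 to 1.47), which is under the limit of a call. Few cells carried the gene, since 3.83%, 6.11% and 6.09% of endothelial cells had a Vcam1 UMI in control, at 24 h and at 3 d, and 5 cells held 78.9%, 86.2% and 57.4% of its UMIs. Oligodendrocytes, which are not known for Vcam1, had a UMI in 1.72%, 0% and 1.61% of cells at median depths of 13417, 16150.5 and 12899 UMIs. With every cell thinned to 2000 UMIs, the endothelial shares were 2.22%, 4.07% and 3.60%, with 17, 8 and 36 cells too shallow to be used, and those of oligodendrocytes were 0% in all 3 libraries. Without the 5 cells richest in Vcam1 in each library, the 24 h log2 ratio was 1.03 on 23 UMIs, too few for a call. At 3 d it was then 1.90, past the limit and above the 24 h ratio. The 3 d ratio of Vcam1 also passed with doublets left out (1.02) and by the mean of single-cell CPM (1.49). Astrocyte markers in the endothelial class (9, 8 and 9 of 9 found, Slc1a2 the most abundant, with Aqp4 at 0 at 24 h) summed to 559, 207 and 459 CPM, and their part in the Vcam1 result was not tested.

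Most Vcam1 RNA lay outside vessels. Astrocytes held 83.5% of the Vcam1 UMIs of the cells kept in control, 60.3% at 24 h and 80.7% at 3 d, endothelial cells 2.22%, 16.2% and 5.57%, and microglia 2.87%, 5.65% and 4.70%. In control, neuron-like cells (3.1%), microglia and erythroid cells (2.81%) each held more of it than endothelial cells. In astrocytes Vcam1 stood at 160 CPM in control, 143 at 24 h and 145 at 3 d, and 71.6%, 65.5% and 68.9% of them had a UMI. The astrocyte log2 ratios were -0.17 and -0.15, far from a call. In the control library the order was astrocytes, endothelial cells at 27.3 CPM, pericytes at 11.1, neuron-like cells at 9.66, microglia at 5.66 and oligodendrocytes at 2.43. Astrocytes stood apart, and from endothelial cells downward each interval overlapped that of the next class, that of pericytes running from 4.77 to 21.8. At 24 h Vcam1 had 0 UMIs in pericytes, neuron-like cells and oligodendrocytes, which allows up to 2.96, 3.13 and 2.50 CPM.

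Icam1 encodes a ligand of the leukocyte integrins that contain Itgb2. In endothelial cells it stood at 50.2 CPM in control (70 UMIs, interval 39.1 to 63.4), 49.1 at 24 h (63 UMIs, 37.8 to 62.9) and 38.3 at 3 d (105 UMIs, 31.4 to 46.4). The 3 intervals overlapped, and log2 ratios were -0.03 at 24 h (-0.55 to 0.48) and -0.39 at 3 d (-0.84 to 0.07). The 24 h ratio depended on the endothelial cells used, since it passed the limit as lower with subclusters weighted by their control shares (-1.07) and without the venous-list subcluster described further on (-1.47, an alternative chosen after seeing the data). It passed as higher among the few cells with no more than 1 marker UMI of another class, a value also given further on. The -1.47 rests on 22 against 69 UMIs, and 1 control cell held 31 of the 69. A UMI of Icam1 was present in 9.76%, 7.86% and 8.12% of endothelial cells and, after thinning, in 5.56%, 3.62% and 5.41%. Astrocytes, at median depths of 9334, 11498 and 9307 UMIs, had it in 1.68%, 0.840% and 1.40% of cells. The richest 5 cells held 61.4%, 76.2% and 41.0% of the endothelial UMIs. Icam1 was not mainly endothelial, since microglia held 74.3%, 73.2% and 64.8% of its UMIs in control, at 24 h and at 3 d, and the endothelial class 5.99%, 13% and 5.45%. Control levels were 100.4 CPM in microglia, 50.2 in endothelial cells, and 2.70 in astrocytes, 2.37 in neuron-like cells, 1.38 in pericytes and 1.22 in oligodendrocytes, the intervals of the last 4 classes overlapping. In oligodendrocytes Icam1 went from 4 UMIs in control to 0 at 24 h and 23 at 3 d (6.65 CPM), 27 UMIs for the 3 d comparison and so too few for a call.

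Icam2, a constitutive endothelial ligand of the same integrins, was nearly confined to vessels, with 90.6% of its 1018 UMIs over the 3 libraries in the endothelial class. It measured 242 CPM in control (338 UMIs, interval 217 to 270), 176 at 24 h (225 UMIs, 153 to 200) and 131 at 3 d (359 UMIs, 118 to 145). Control stood above both TIA libraries, and no intervals overlapped. Its log2 ratio to control was -0.47 (-0.72 to -0.22) at the earlier time and -0.89 (-1.11 to -0.67, 0.541 of the control level) at the later one, neither of which reached 2-fold. Endothelial cells with an Icam2 UMI made up 59.2%, 55.0% and 43.5%, and 33.3%, 26.7% and 21.1% after thinning. In microglia that share was 1.07%, 0.704% and 1.49%, at median depths of 7850, 9447.5 and 7826 UMIs. No other class compared had more than 1.78 CPM of Icam2, a level reached by microglia at 3 d.

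Pecam1 encodes CD31, which joins endothelial cells at their contacts and is also found on platelets and leukocytes. Endothelial Pecam1 was 626 CPM in control (873 UMIs, interval 585 to 669), 661 at 24 h (847 UMIs, 617 to 707) and 682 at 3 d (1869 UMIs, 652 to 714). Neighbouring intervals overlapped, and the log2 ratios were 0.08 (-0.06 to 0.22) and 0.12 (0.01 to 0.24). Most endothelial cells carried Pecam1, with a UMI in 91.6%, 93.9% and 88.0% of cells, or 69.6%, 73.8% and 70.3% after thinning, beside 1.79%, 2.94% and 2.17% of astrocytes. Over the 3 libraries the class held 78.0% of the 4600 Pecam1 UMIs and microglia 11%. In control the order was endothelial cells, microglia at 27.4 CPM, neuron-like cells at 7.66, oligodendrocytes at 2.43, astrocytes at 1.91 and pericytes at 1.38. The last 3 overlapped in their intervals, and that of pericytes (0.0350 to 7.70) reached into that of neuron-like cells.

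The selectins were close to the limit of detection. Selp, which encodes P-selectin, had 0 UMIs in control endothelial cells, 4 at 24 h and 0 at 3 d, and all 4 lay in 1 cell. A count of 0 allows up to 2.15 CPM in the control endothelial sum, 2.34 at 24 h and 1.10 at 3 d. The interval of the 24 h level, 0.850 to 7.99 CPM, reaches below the limits of both other libraries. Sele, which encodes E-selectin, had 8 UMIs in control (5.74 CPM), 0 at 24 h and 10 at 3 d (3.65 CPM). All 8 control UMIs of Sele were in 1 cell, and 9 of the 10 at 3 d were in another. The log2 ratios of Sele, at most -1.29 at 24 h with 0 taken as 3 UMIs and -0.65 at 3 d (-2.15 to 0.89), rest on too few UMIs for a call. Outside the endothelial class, Sele had no UMI in the cells kept, while Selp had 4 in astrocytes, 3 in the cluster with macrophage markers and 1 in microglia. A difference in either selectin between the libraries was not detectable at this depth.

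Ackr1 encodes an atypical chemokine receptor that marks venules. Endothelial cells held 2 Ackr1 UMIs in control (1.43 CPM), 50 at 24 h (39.0 CPM, interval 28.9 to 51.4) and 3 at 3 d (1.10 CPM). The 24 h library stood far above the others, with a log2 ratio to control of 4.76 (2.84 to 7.85). All 50 of these UMIs came from 2 cells with 42 and 8, so without the 5 richest cells Ackr1 was at 0 at 24 h and the call was lost. The cell with 42 Ackr1 UMIs, of 5452 UMIs in all, also held 43 UMIs of Vcam1, 31 of Icam1, 4 of Selp, 40 of Vwf and 10 of Pecam1. The other had 8939 UMIs, among them 35 of Vwf, 9 of Icam1 and 3 of Vcam1. Beyond vessels, neuron-like cells had 20, 3 and 15 Ackr1 UMIs (3.65, 3.13 and 4.86 CPM). Astrocytes had 3, 7 and 10 (0.337, 2.46 and 0.708 CPM), with a 24 h log2 ratio of 2.87 (0.74 to 5.45) on too few UMIs for a call. Cadm3, a neuronal adhesion gene on the same strand whose annotated span includes Ackr1, measured 35.0, 32.3 and 41.4 CPM in neuron-like cells and had 0, 0 and 2 UMIs in endothelial cells, and reads of these overlapping genes cannot be told apart here.

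Vwf, the gene of von Willebrand factor, which tethers platelets and drives formation of Weibel-Palade bodies, was found in more endothelial cells after TIA than in control. Its endothelial level was 131 CPM in control (182 UMIs, interval 112 to 151), 465 at 24 h (596 UMIs, 428 to 504) and 248 at 3 d (678 UMIs, 229 to 267). Vwf was highest at 24 h and intermediate at 3 d, and the 3 intervals were apart. The log2 ratio was 1.83 at 24 h (1.59 to 2.08, a 3.56-fold rise) and 0.92 at 3 d (0.68 to 1.17, 1.90-fold and so just under the limit), and that of 3 d to 24 h was -0.91 (-1.07 to -0.75). A Vwf UMI was found in 31.0% of endothelial cells in control, 65.1% at 24 h and 46.7% at 3 d, beside 2.93%, 3.17% and 2.98% of microglia. Thinned to 2000 UMIs, the endothelial shares were 17.4%, 43.9% and 30.8%, and those of microglia 0.891%, 0.358% and 0.712%, with 15, 5 and 10 microglia too shallow. The amount per thinned cell shifted too, since 3 or more Vwf UMIs were seen in 0.741% of cells in control, 10.9% at 24 h and 3.96% at 3 d. Without the 5 richest cells per library, Vwf kept its rise at 24 h with 1.89 and passed the limit at 3 d with 1.18, as it did at 3 d without regression in the clustering (1.02). The highest Vwf level in another class compared was 4.15 CPM, in control pericytes, and 89.3% of its 1630 UMIs over the 3 libraries were endothelial.

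Platelets also carry Vwf, Selp and Pecam1 products, so a list of platelet and megakaryocyte genes was added after the data had been seen. Of its 8 genes, 6, 5 and 6 had UMIs in the endothelial class, with a summed level of 15.1, 11.7 and 14.6 CPM, and Gp1bb was at 0 in all 3 libraries. These levels rest on 21, 15 and 40 UMIs, and the part of platelet RNA in the results was not tested.

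**Figure D2:**
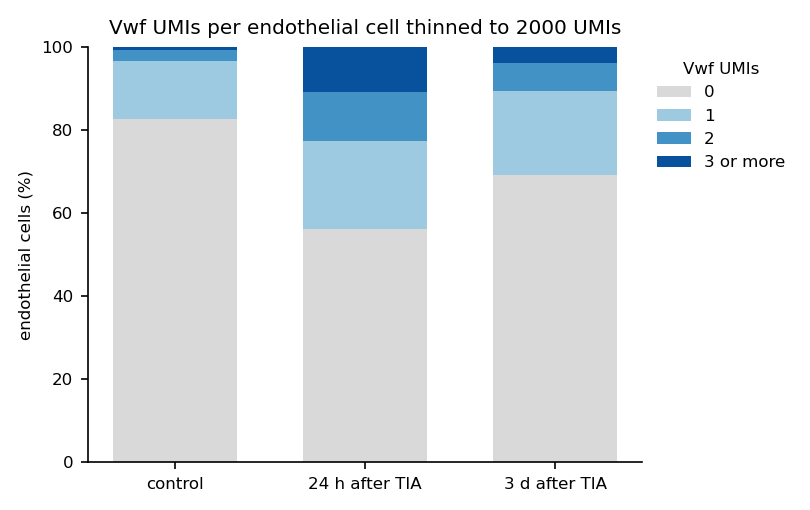
Percent of endothelial cells (vertical axis) in the control, 24 h and 3 d libraries (horizontal axis), stacked by the number of Vwf UMIs after each cell was thinned to 2000 UMIs. Cells with 0 Vwf UMIs were 82.6% in control, 56.1% at 24 h and 69.2% at 3 d.

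The endothelial cells were split into 6 subclusters without using the 8 genes, and these were described with lists of arterial, capillary and venous genes that hold none of the 8. A subcluster led by Gkn3, Mgp and Bmx was highest in the arterial list and held 24.7% of endothelial cells in control, 3.93% at 24 h and 26.9% at 3 d. A subcluster led by Lcn2, Il1r1, Nrxn3, Sox2ot and Lrg1 was highest in the venous list, with 8 cells in control, 16 at 24 h and 41 at 3 d (2.79%, 6.99% and 6.94%). Lcn2, Il1r1 and Lrg1 are also in the cytokine-inducible list used further on, as are Ch25h and Ptgs2, which come next among its leading genes. Whether this subcluster is a venous segment or an activated state was not tested. There were 3 subclusters highest in the capillary list, which divided mostly by library and were therefore pooled (58.9%, 84.3% and 61.1%). The last was led by microglial genes such as Cx3cr1 and C1qa and held 39, 11 and 30 cells, and leaving it out, an alternative chosen after seeing the data, changed no call of a member.

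Vcam1 was concentrated in the venous-list subcluster. There it measured 393 CPM in control (20 UMIs), 988 at 24 h (96 UMIs) and 351 at 3 d (76 UMIs). The 24 h value rests on few cells, since 2 of the 16 held 43 and 32 of its UMIs, and 1 control cell held 13 of the 20. The whole subcluster held 52.6% of the endothelial Vcam1 UMIs in control, 88.1% at 24 h and 53.9% at 3 d. In the arterial-list subcluster Vcam1 was at 31.9 CPM in control (12 UMIs), 89.4 at 24 h (5 UMIs in 1 of 9 cells, interval 29.0 to 209) and 41.3 at 3 d (31 UMIs). In capillary-list cells it was at 5.88 (5 UMIs), 7.22 (8 UMIs) and 20.6 CPM (32 UMIs, 22 of them in 1 cell). When the venous-list subcluster was left out, also chosen after seeing the data, the 24 h log2 ratio of Vcam1 turned from 1.64 to -0.29 (13 against 18 UMIs, -1.44 to 0.82), and at 3 d it was 0.94. Among venous-list cells, 3 of 8, 9 of 16 and 15 of 41 had a Vcam1 UMI in control, at 24 h and at 3 d, and all of them also had Vwf. Icam1 was found with Vcam1 in 1, 3 and 5 of these cells.

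Icam1 differed between these groups of subclusters within the same library. In venous-list cells it went from 19.7 CPM in control (1 UMI) to 422 at 24 h (41 UMIs in 3 cells) and 143 at 3 d (31 UMIs), log2 ratios of 4.42 (1.87 to 9.76) and 2.87 (0.28 to 8.22). In capillary-list cells it went the other way, from 63.5 CPM in control (54 UMIs) to 19.8 at 24 h (22 UMIs) and 27.7 at 3 d (43 UMIs), with log2 ratios of -1.68 (-2.46 to -0.94) and -1.20 (-1.81 to -0.59). Both contrasts rest on few cells, since 1 cell held 31 of the 54 control UMIs in capillary-list cells and 1 cell held 31 of the 41 venous-list UMIs at 24 h. The share of capillary-list cells with an Icam1 UMI was 9.47%, 7.77% and 5.82%. That control cell was also the cell with all Sele UMIs of its library. Among the 7 control and 14 TIA cells of the class with no more than 1 marker UMI of another class, the 24 h ratio of Icam1 was 3.80 on 32 UMIs, past the limit as higher. This ratio rests on few cells, and in the 24 h library 1 endothelial cell held 31 Icam1 UMIs. Ackr1 had UMIs in venous-list cells and in no other endothelial subcluster, at 39.3, 515 and 13.9 CPM.

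Vwf was highest in venous-list cells in every library but was not limited to them. It measured 826 CPM there in control, 1811 at 24 h and 684 at 3 d, and a UMI was seen in 87.5% of the cells in control, in all 16 at 24 h and in 87.8% at 3 d. In the arterial-list subcluster Vwf stood at 106, 340 (19 UMIs in 5 of 9 cells) and 196 CPM, and in capillary-list cells at 105, 359 and 237 CPM. At 24 h it was thus higher in all 3 groups, with log2 ratios of 1.13 (venous list, 0.64 to 1.66), 1.68 (arterial, 0.81 to 2.50) and 1.78 (capillary, 1.44 to 2.13). By 3 d the venous-list ratio was -0.27 (-0.77 to 0.26), while the arterial and capillary ratios were 0.88 (0.37 to 1.43) and 1.18 (0.84 to 1.53). Without the venous-list subcluster, the class as a whole gave 1.77 at 24 h and 1.01 at 3 d, the latter just past the limit.

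Icam2 and Pecam1 varied less between the groups of subclusters. Icam2 was at 337, 286 and 161 CPM in the arterial-list subcluster, 215, 170 and 126 in capillary-list cells, and 118, 154 and 134 in venous-list cells. Its 3 d log2 ratio was -1.06 (-1.44 to -0.69) in arterial-list and -0.77 (-1.07 to -0.47) in capillary-list cells. Pecam1 lay between 531 and 731 CPM in all 3 groups and libraries.

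**Figure D3:**
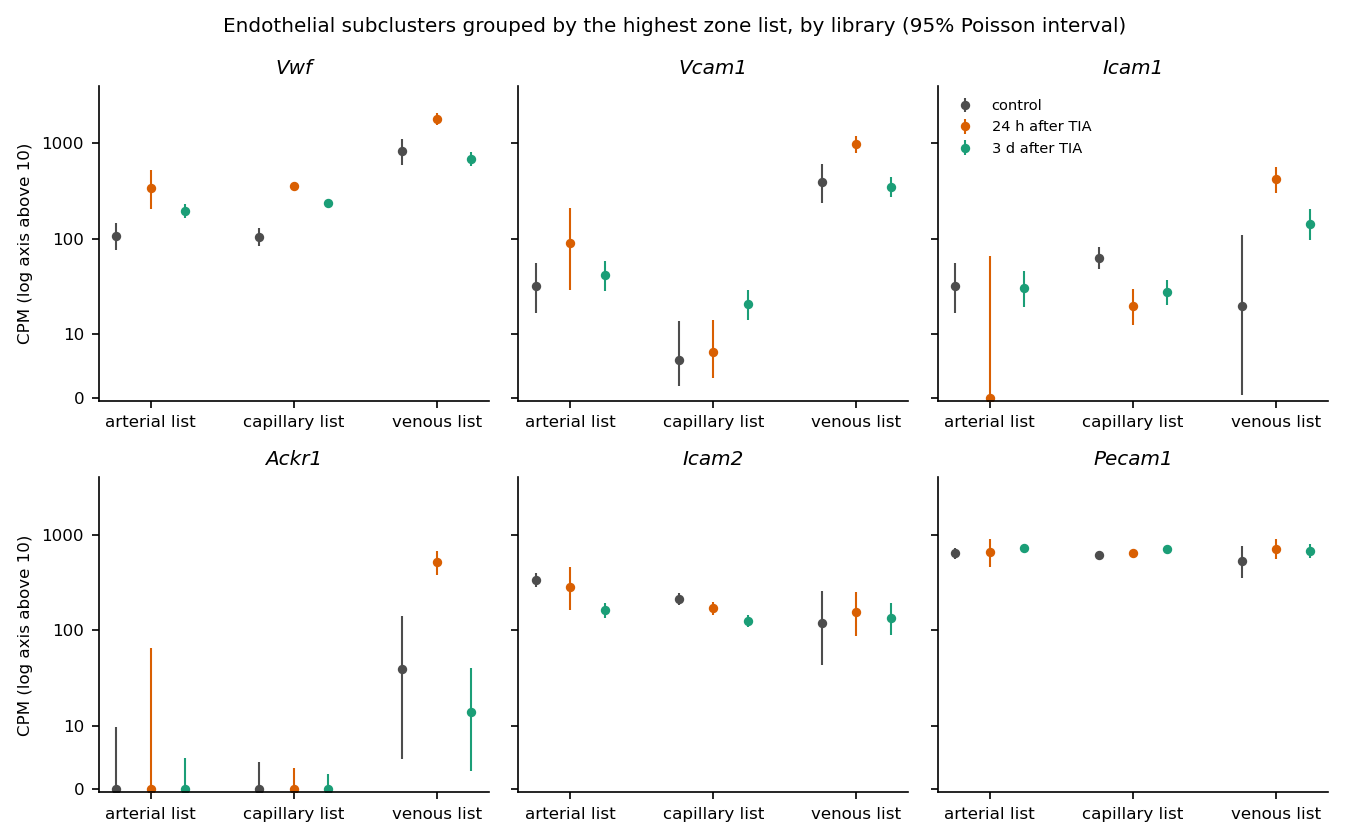
Level in CPM (vertical axis, logarithmic above 10) of 6 members in the arterial-list, capillary-list and venous-list endothelial cells of the control, 24 h and 3 d libraries, with 95% counting intervals as error bars. Vcam1 and Vwf are highest in venous-list cells, and Vwf is above control in all 3 groups at 24 h.

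Other genes of the same pathways were counted in endothelial cells from 8 lists, where tested means at least 30 UMIs over both sums, and ratios called highest or lowest are those among genes with at least 50 UMIs. Of 14 leukocyte ligands and receptors, 6 could be tested at 24 h, with 0 higher and 2 lower (median log2 -0.15), and 7 at 3 d, with 0 higher and 1 lower (0.05). Itgb1, the most abundant, had 348, 298 and 322 CPM, and Glg1 127, 125 and 148. Selplg, which encodes the P-selectin ligand of leukocytes, fell from 48.1 to 3.12 CPM at 24 h (log2 -3.95) and stood at 62.8 CPM at 3 d (0.39). Microglial markers of the class were also lowest at 24 h, and their part was not tested. Cd24a fell at 24 h with -1.10 on 30 UMIs and Cd44, at 0.57 then, fell at 3 d with -1.04. Itgam measured 0.45 at 3 d, and Gp1ba, the platelet receptor of von Willebrand factor, had 1 UMI in microglia and 1 in astrocytes at 3 d and 0 in the other classes compared.

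Of 21 other junction and adhesion genes, 17 and 19 could be tested, and 0 rose or fell at either time (medians 0.00 and -0.07). Cldn5, the main claudin of brain endothelium, was at 6835, 5528 and 4847 CPM (log2 -0.31 and -0.50), and Tjp1, a tight junction scaffold, at 1310, 1543 and 1571. The lowest log2 ratios at 24 h were those of Emcn (-0.57) and Podxl (-0.51) and the highest those of Alcam (0.46) and Ocln (0.33). At 3 d Alcam (0.75) and Nectin2 (0.70) were highest, with Cldn5 and Cd34 (-0.45) lowest. Over all genes tested, 2.48% rose and 3.58% fell at 24 h and 3.53% and 0.96% at 3 d, so a count of 0 among so few genes is near the background.

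Of 20 genes of Weibel-Palade bodies and haemostasis, 2 rose and 1 fell among 15 at 24 h (median 0.07), and 1 rose and 0 fell among 16 at 3 d (0.16). Plat, the gene of tissue plasminogen activator, went from 341 to 736 CPM at 24 h (log2 1.11) and was at 439 CPM at 3 d (0.36). Angpt2, whose product is stored with von Willebrand factor, went from 12.2 to 25.7 and 35.4 CPM (1.08 and 1.54), a rise at both times. Cd63, a membrane protein of these granules, fell at 24 h (-1.37). Thbd, the gene of thrombomodulin, had 148, 92.0 and 87.6 CPM (-0.68 and -0.75), and Mmrn2 was at -0.19 and -0.40. Stx3 was at 0.76 and 0.61, and Ece1, abundant throughout, at 280, 302 and 262 CPM.

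Of 30 cytokine-inducible genes, 6 rose and 1 fell among 17 at 24 h (median 0.56), and 3 rose and 0 fell among 17 at 3 d (0.47). Lcn2, a secreted lipocalin, went from 2.87 to 141 CPM at 24 h (log2 5.62) and 28.1 CPM at 3 d (3.29). Cebpd, a transcription factor of the acute phase, rose from 73.9 to 360 and 313 CPM (2.29 and 2.08). Ch25h, an enzyme that oxidises cholesterol, rose from 3.59 to 25.0 and 19.7 CPM (2.80 and 2.46). Birc3 (1.46), Il1r1 (1.13) and Lrg1 (4.06) completed the 24 h group, while Irf1 fell from 92.5 to 42.9 CPM (-1.11) and stood at 77.4 CPM at 3 d (-0.26). Nfkbia, the most abundant of the list, was at 595, 959 and 711 CPM (0.69 and 0.26), Cx3cl1 at -0.60 at 24 h and Tnfaip8l1 at -0.27 at 3 d. Lcn2, Ch25h and Lrg1 had 4, 5 and 3 UMIs in control and could be tested only through the TIA libraries, so their inclusion fixed their direction. Of the chemokines in the list, Cxcl9, Cxcl2 and Ccl7 had no endothelial UMI in any library.

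Of 18 regulators of quiescence and shear response, 17 could be tested at each time and 0 rose or fell (medians -0.15 and -0.04). Klf2, a factor induced by laminar flow, measured 1628, 1961 and 1587 CPM and Klf4 775, 704 and 652. Ets1 (-0.55) and Sox18 (-0.44) were lowest at 24 h and Dll4 (0.55) and Gata2 (0.53) highest. At 3 d Sox18 (-0.92) and Nos3 (-0.41) were lowest, with Dll4 (0.87) and Erg (0.61) highest.

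The arterial list showed 0 higher and 6 lower of 11 at 24 h (of 14 listed, median -1.46), and 0 higher and 2 lower of 12 at 3 d (0.06). Gkn3 fell from 136 to 2.34 CPM at 24 h (-5.86) and was at 128 CPM at 3 d (-0.09), and Alpl fell with -2.98 at 24 h and stood at -0.76 at 3 d. Hey1 (-0.42) and Sema3g (-0.39) were the highest ratios at 24 h, Efnb2 (0.53) and Tm4sf1 (0.29) at 3 d, when Stmn2, also a neuron marker, fell with -1.51. Tm4sf1 was the most abundant, at 652, 376 and 800 CPM, and Mgp followed at 208, 75.7 and 211. The arterial-list subcluster, which these genes lead, held its smallest share of cells in the same library. Of the 12 capillary genes, all tested, 0 rose and 1 fell at 24 h (median 0.28) and 0 and 0 at 3 d (-0.06). Cxcl12, a chemokine of capillaries, was the gene that fell, from 3240 to 1343 CPM (-1.27), and was at 2587 CPM at 3 d, while Spock2 had 3008, 2500 and 3088. Kdr was at -0.57, Slc7a5 at 0.89 and Slc16a1 at 0.88 at 24 h, and Ivns1abp at 1.00 (just under 2-fold before rounding), Sgms1 at 0.64, Car4 at -0.47 and Tfrc at -0.46 at 3 d.

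In the venous list, 4 rose and 0 fell of 11 at 24 h (of 13 listed, median 0.27), and 2 rose and 0 fell of 11 at 3 d (0.01). Lcn2, Lrg1 and Il1r1, which are among those that rose at 24 h, are in the cytokine-inducible list as well, and Lcn2 and Lrg1 could only have been called higher. Bgn, with 6 UMIs in control and 29 at 3 d, was the gene beside Lcn2 that rose at 3 d (1.30), and it was named after its value had been seen. Its inclusion fixed its direction too. Tmsb10, the most abundant, was at 831, 1233 and 563 CPM (-0.56 at 3 d), Slc38a5 at -0.46 and Ephb4 at -0.12 at 24 h, and Ephb4 at -0.48 at 3 d. Il1r1 was at 0.61 at 3 d. Several listed genes, namely Cldn5, Cdh5, Emcn, Kdr and Tie1, are also among the markers that named the endothelial class.

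Microglia numbered 1025 cells in control, 284 at 24 h and 1274 at 3 d and had 8 of 8 of their markers in each library. In them 1 of the 4 members tested rose at 24 h, Vcam1, beside 2.46% of 11687 genes, and 1 fell, Pecam1, beside 2.77%. At 3 d 0 of 5 rose or fell, beside 1.7% and 0.997% of 12735 genes. At 1.5-fold, Vcam1 was higher (8.56%) and Pecam1 lower (6.57%) at 24 h, and Vcam1 was higher (5.65%) with 0 members lower (3.34%) at 3 d. The median log2 ratio of the members was 0.02 at 24 h and 0.14 at 3 d, beside 0.05 and 0.06 over all genes tested.

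Microglial Icam1 stayed within 2-fold, at 100.4 CPM in control (869 UMIs, interval 93.8 to 107), 120.1 at 24 h (355 UMIs, 108 to 133) and 110.9 at 3 d (1248 UMIs, 105 to 117). The log2 ratios were 0.26 (0.08 to 0.44) and 0.14 (0.02 to 0.27). A UMI was present in 46.8%, 48.9% and 48.9% of microglia, or 16.2%, 16.8% and 16.7% after thinning, far above the astrocytes. Icam1 differed more between the 2 microglial clusters than between libraries. In the larger cluster it measured 84.2, 83.4 and 84.5 CPM, and in the smaller, led by Ccl12, Cxcl10 and Ccl2, 221.9, 208.1 and 186.5 CPM. Cells of the smaller cluster numbered 118 in control, 67 at 24 h and 302 at 3 d.

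Vcam1 in microglia was low, at 5.66 CPM in control (49 UMIs), 12.9 at 24 h (38 UMIs) and 10.6 at 3 d (119 UMIs), with log2 ratios of 1.18 (0.53 to 1.82) and 0.90 (0.41 to 1.41). Both TIA libraries stood above control. The 3 d ratio passed the limit without the 5 richest cells (1.19) and without regression (1.00). A Vcam1 UMI was found in 3.22%, 5.63% and 6.36% of microglia, and in 1.39%, 1.79% and 1.66% after thinning, below the thinned endothelial shares of 2.22%, 4.07% and 3.60%. The rise at 24 h was lost without the 5 richest cells per library (0.48), with a looser cell filter (0.99, cells left out only past both limits) and by the mean of single-cell CPM (0.72), and it turned to -1.90, on 9 UMIs, when the comparison was limited to the 119 control and 40 TIA microglia that had no more than 1 marker UMI of another class. Astrocyte markers in microglia (9 of 9 in each library, Slc1a3 the most abundant) summed to 424 CPM in control, 483 at 24 h and 582 at 3 d, and their part in the Vcam1 result was not tested. In the larger cluster Vcam1 was at 3.66, 9.58 and 6.95 CPM and in the smaller at 20.6, 20.7 and 20.9.

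Pecam1 in microglia measured 27.4 CPM in control (237 UMIs), 12.9 at 24 h (38 UMIs) and 20.3 at 3 d (229 UMIs). It was lowest at 24 h, with log2 ratios of -1.09 (-1.63 to -0.59) and -0.43 (-0.70 to -0.16). Pecam1 was at 28.0, 15.8 and 20.7 CPM in the larger microglial cluster, where the 24 h level was within 2-fold of control. In the smaller cluster Pecam1 was at 22.6, 5.75 (5 UMIs) and 19.2 CPM. Its share of cells was 16.5%, 10.9% and 13.8%, and 4.55%, 2.15% and 3.48% after thinning. In the same limited set of microglia the 24 h ratio of Pecam1 was 0.69 on 14 UMIs, and it was short of the limit with the members kept for clustering (-0.90) and by the mean of single-cell CPM (-0.92). Endothelial markers in microglia (12 of 12, Flt1 the most abundant) summed to 19.6, 23.3 and 57.6 CPM. Platelet genes there (5, 5 and 7 of 8, Gp9 the most abundant) summed to 45.6, 30.1 and 35.7 CPM. Other lists lowest at 24 h in microglia included those of monocytes and dendritic cells (6, 6 and 7 of 8, Cd209a at 0) with 55.3, 14.9 and 23.1 CPM, oligodendrocytes (8 of 8) with 157, 56.1 and 99.4 CPM and erythroid cells (6 of 6) with 1158, 19.6 and 100.3 CPM. The part of any of these lists in the Pecam1 result was not tested. Microglial Vwf was at 3.93, 3.38 and 3.46 CPM (34, 10 and 39 UMIs), above the 0.337, 0 and 0.850 CPM of astrocytes, and Icam2 had 11, 2 and 20 UMIs. Sele had 0 UMIs in all 3 libraries, Selp 0, 0 and 1, and Ackr1 0, 0 and 3.

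The integrins and glycoproteins that bind the members were read by class. Microglia carried Selplg at 1520, 1469 and 1371 CPM, Itgam at 585, 385 and 534, Itgb2 at 168, 181 and 169 and Itgb1 at 231, 221 and 226. Itga4, the integrin partner for VCAM-1, was highest among the classes compared in pericytes, at 387, 241 and 280 CPM, against 1.62, 2.37 and 2.31 in microglia.

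For each member with at least 100 UMIs in endothelial cells, the genes with the most similar levels were found by Pearson correlation of log2(CPM + 1) over 18 points, the 6 classes in 3 libraries, which share libraries and depth. For Vcam1 these were S1pr1 (r 0.979), Lxn (0.935) and Pcgf5 (0.928), and for Icam1 Tal1 (0.968), H2-T24 (0.9655) and Slfn2 (0.964). For Icam2 they were Trim6 (0.989), Gata2 (0.988) and Ushbp1 (0.987), for Vwf Alas1 (0.974), Rasal2 (0.972) and Gm20631 (0.968), and for Pecam1 Edn1 (0.988), S1pr4 (0.979) and Clec1a (0.976). The same was done over the 12 points of an endothelial subcluster in a library with at least 20 cells, which leaves out the venous-list points of control (8 cells) and 24 h (16 cells), where Vcam1 was highest. The closest genes there were Gde1 (0.899), Lamtor1 (0.886) and Trir (0.879) for Vcam1, and Rufy3 (0.8635), Slfn2 (0.843) and Ypel5 (0.841) for Icam1. Icam2 was closest to H1f0 (0.920), Plec (0.907) and Pfdn1 (0.904), Vwf to Tmem252 (0.935), Kbtbd11 (0.917) and Fnbp1l (0.915), and Pecam1 to Tie1 (0.926), Hip1r (0.918) and Syde1 (0.914).

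In the annotation (GRCm38), Vcam1 lies at chr3:116109949-116129688 on the minus strand, Icam1 at chr9:21015985-21028817 on the plus strand and Vwf at chr6:125546774-125686679 on the plus strand. Sele (chr1:164048234-164057677) and Selp (chr1:164115264-164150026), both on the plus strand, are neighbours, and Ackr1 lies on the same chromosome at chr1:173331886-173333750 on the minus strand. Icam2 (chr11:106377656-106388075) and Pecam1 (chr11:106654217-106750628) are both on the minus strand of chromosome 11. Vcam1, Icam1 and Selp overlap antisense genes of unknown role (Gm43109, Gm47079, and Gm16587 with Gm16548).

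Promoters of 4 members, Icam1, Sele, Selp and Ackr1, were in the RefSeq table (GRCm38.p6, 300 bases each). All 4 are shown, and the table held no entry for the other members. The motif GGANNTTCC, its longer form with 1 further N in the middle, both of which can overlap the consensus of NF-kB, and TATAAA are in capitals, and these letters were chosen after the sequences had been read. Both strands were searched, and of 32851 promoters 4.26% held GGANNTTCC, 3.88% the longer form, 7.81% TGANTCA and 13.6% TATAAA. The NF-kB consensus, searched as GGGRNNYYCC, was held by 8.46% of promoters and by none of the 4. Icam1 (chr9:21015690-21015989, plus strand) held GGANNTTCC and TATAAA, Sele (chr1:164047984-164048283, plus strand) both of these and TGANTCA, and Ackr1 (chr1:173333454-173333753, minus strand) the longer form at 2 places, while Selp (chr1:164115014-164115313, plus strand) held only TGANTCA. A match describes these letters and is not a site shown to be used.
Icam1: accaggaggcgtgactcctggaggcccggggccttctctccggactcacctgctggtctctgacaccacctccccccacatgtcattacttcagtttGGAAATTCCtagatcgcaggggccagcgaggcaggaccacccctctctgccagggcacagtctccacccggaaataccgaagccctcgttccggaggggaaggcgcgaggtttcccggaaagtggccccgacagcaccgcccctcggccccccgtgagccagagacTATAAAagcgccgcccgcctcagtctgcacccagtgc
Sele: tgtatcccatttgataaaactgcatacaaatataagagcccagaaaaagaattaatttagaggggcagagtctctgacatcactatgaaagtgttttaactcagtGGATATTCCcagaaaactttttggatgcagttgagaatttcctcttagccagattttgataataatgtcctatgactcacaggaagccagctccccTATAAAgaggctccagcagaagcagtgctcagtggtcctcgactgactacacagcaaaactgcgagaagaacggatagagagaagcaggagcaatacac
Selp: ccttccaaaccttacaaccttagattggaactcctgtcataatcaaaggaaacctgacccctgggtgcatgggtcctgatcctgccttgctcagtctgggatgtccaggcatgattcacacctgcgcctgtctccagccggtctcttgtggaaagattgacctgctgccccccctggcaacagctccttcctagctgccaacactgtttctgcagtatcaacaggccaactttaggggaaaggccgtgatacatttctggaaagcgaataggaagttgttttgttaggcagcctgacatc
Ackr1: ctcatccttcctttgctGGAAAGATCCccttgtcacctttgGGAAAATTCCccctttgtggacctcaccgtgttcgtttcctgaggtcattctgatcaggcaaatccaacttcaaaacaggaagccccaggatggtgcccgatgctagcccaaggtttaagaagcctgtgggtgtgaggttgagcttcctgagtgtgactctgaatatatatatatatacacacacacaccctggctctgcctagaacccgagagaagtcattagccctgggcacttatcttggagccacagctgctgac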

How the data were processed

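The authors deposited raw UMI counts from Cell Ranger as filtered matrices of cell barcodes, aligned to mm10 with GENCODE vM23 according to the paper. The matrix headers give Cell Ranger 7.1.0 and the submitters' processing notes 3.1.0, and whether intronic reads were counted is not given in the sources used. Gene coordinates are from GENCODE M21 (GRCm38).

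Cells with at least 500 genes and at most 7% mitochondrial UMIs were kept. Clusters were made over all libraries in Seurat 5.3.0 (R 4.3.3) with 2000 variable features less the 8 members, regression on UMIs and mitochondrial share, 20 principal components and resolution 0.5. A cluster was named when at least 3 markers of a type were found in at least 10% of its cells and 2-fold above the other clusters. Comparisons were limited to the 6 classes that had 50 or more cells per library. Endothelial subclusters used 15 components and resolution 0.5.

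UMIs were summed per class and library and scaled to CPM with Python 3.11.15, NumPy 2.4.6, SciPy 1.17.1 and pandas 2.3.3. Intervals at 95% are exact Poisson for CPM, Clopper-Pearson for shares and conditional binomial for ratios. A sum of 0 was set to 3 UMIs, which gives a bound. With 1 library per group, no test between groups was possible. Shares were repeated after thinning cells to 2000 UMIs. Doublets from Scrublet (scanpy 1.11.5) numbered 122, 6 and 140 in control, at 24 h and at 3 d and were left out in an alternative only. The ratio script was tested on simulated data. Alternatives were a looser cell filter (leaving out only cells past both limits), other resolutions, members kept for clustering, no regression, doublets removed, another scaling, cells with few markers of other types, removal of the 5 richest cells, single-cell means, weighting of subclusters and other limits.

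Members and lists were chosen with earlier results of these data known. Beside the members, the text names from each list the most abundant genes and, at each time, those with the 2 highest and 2 lowest ratios among genes with at least 50 UMIs, and the 3 most similar genes per member with at least 100 UMIs. Other list genes were named because they passed the limit or to give the value of a gene at 0, after their values were seen.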

Additional observations from a re-analysis of the deposited data

How the results depend on the processing

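Of 248 ratios of members recomputed under 13 settings, 2 of them added after seeing the data, 219 stayed within the counting interval, 26 moved outside it and 3 called ones reversed, while 14 in all took the other sign, and the causes were not tested. The reversals were Vcam1 in microglia at 24 h (-1.90) and Pecam1 in microglia at 24 h (0.69) among cells with at most 1 UMI from other markers, and Vcam1 in endothelial cells at 24 h (-0.29) without the venous-list subcluster. The first setting left 7, 14 and 22 endothelial cells and 119, 40 and 96 microglia in control, at 24 h and at 3 d.

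With the looser cell filter, endothelial cells were 5.62% of control, 15.1% of 24 h and 10.1% of 3 d cells, and 1 member passed in microglia at 24 h (Pecam1). Without the 5 richest cells of each gene, 1 member passed in endothelial cells at 24 h (Vwf), 2 at 3 d (Vcam1 and Vwf), 1 in microglia at 24 h (Pecam1) and 1 at 3 d (Vcam1). At 1.5-fold, 3 passed in endothelial cells at 3 d (Vcam1, Icam2 and Vwf) and 1 in microglia at 3 d (Vcam1). Without regression, 1 passed in endothelial cells at 3 d (Vwf) and 1 in microglia at 3 d (Vcam1). With doublets left out, and with the mean of single-cell CPM, 1 passed in endothelial cells at 3 d (Vcam1), and without the venous-list subcluster 1 did (Vwf). In endothelial cells at 24 h, Icam1 passed as lower with subclusters weighted by their control shares and without the venous-list subcluster. It passed as higher there among cells with at most 1 UMI from other markers. In microglia at 24 h, 1 passed at 100 UMIs (Pecam1), 1 with members kept for clustering (Vcam1), 0 among cells with at most 1 UMI from other markers and 0 with the mean of single-cell CPM.

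Weighting by the control shares used 4 pooled endothelial groups because 1 subcluster had 1 cell at 24 h. Limits on UMIs and fold were tried on the counts of members only. Scaling by median ratios shifted log2 values by -0.01 in endothelial cells at both times and by -0.06 in microglia at both times. No paired analysis was possible because each group was 1 library.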

Other observations

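The cluster named by macrophage markers and led by S100a8, Cd74 and H2-Eb1 was too small to be compared, with 61 cells in control, 22 at 24 h and 108 at 3 d. Vcam1 in it measured 22.3 CPM in control (37 UMIs), 192 at 24 h (87 UMIs) and 15.0 at 3 d (76 UMIs). The 24 h library was highest, and 5 of its cells held 94.3% of those UMIs. Icam1 was present in all 3 libraries, at 71.0 CPM (118 UMIs), 115 (52 UMIs) and 91.5 (464 UMIs), and this cluster held 17.7% of all Icam1 UMIs of the cells kept. Itga4, the integrin chain that binds VCAM-1, was at 30.1, 86.3 and 21.3 CPM in the same cells.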
